A study of Mus musculus with 21 samples.

Results

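The genes described here are 6 genes of the fetal heterochronic programme, chosen by symbol: the RNA-binding proteins Igf2bp1, Igf2bp2 and Igf2bp3, the let-7 antagonist Lin28b, and the chromatin proteins Hmga1 and Hmga2. All 6 symbols have a row among the 23869 genes of the epithelial tables, and 5 have one among the 21170 genes of the fibroblast tables; Hmga2 in fibroblasts was not analysed here. Their transcripts were followed in sorted mouse lung cells at 5 shared stages, E18.5, P0.5, P2, P7 and finally P28, and in fibroblasts also at P56 (E, embryonic day; P, postnatal day). Igf2bp3 and Igf2bp1 were lower at P28 than at E18.5 in both cell types, Igf2bp3 by 85.6-fold in epithelium and 79.9-fold in fibroblasts, the fibroblast value resting on P28 libraries at 0 and 2.39. Between P2 and P7, Igf2bp1 fell in both cell types and Igf2bp3 in fibroblasts, and between P7 and P28 Igf2bp3 fell in both. Of the Igf2bp falls between P2 and P7, only that of Igf2bp1 in fibroblasts held without each library in turn. Hmga1 followed another course: it was higher in epithelium at every shared stage and had a single high stage, P2, in fibroblasts. P2 was also the fibroblast stage of highest mean for Igf2bp1 and Igf2bp2, and not for Igf2bp3. Lin28b was close to undetected throughout.

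All mice were C57BL/6 animals carrying a Col1a2-GFP transgene, in which the collagen promoter of Col1a2 labels collagen-producing cells; no sample carried a treatment. Epithelial cells (10 libraries, 2 at each of 5 stages) were sorted from lung as Epcam-positive cells negative for GFP, propidium iodide and the lineage markers CD31, CD45, Ter119 and CD146, although the label of the E18.5 epithelium names the lineage and Epcam gates and not GFP. Fibroblasts (11 libraries, 2 at each of the same 5 stages and 1 at P56) were sorted as GFP-positive, Epcam-negative cells without the lineage markers or propidium iodide uptake, so a fibroblast that did not express the transgene is outside the gate. Amplified polyadenylated RNA was sequenced as short tags near transcript 3′ ends (3′SAGE-seq). The labels name no animal for a library, so the p-values below measure only the spread between samples, which may be technical.

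IGF2BP proteins bind mRNAs, among them those of Igf2, H19 and Myc, and affect their stability, transport and translation; they are known as oncofetal proteins because they are abundant in embryos and many tumours and scarce in most adult tissues. LIN28B binds precursors of the let-7 microRNAs and blocks their maturation, and mature let-7 in turn represses mRNAs that carry its seed match, of which Hmga2, Lin28b and the Igf2bp mRNAs are textbook examples. HMGA1 and HMGA2 bind AT-rich DNA in the minor groove and shape chromatin, and in mice both are high in embryonic tissue. The tags came from polyadenylated RNA, and mature let-7 was not measured.

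The let-7 sequences and the matches to them are shown because repression through this seed is the textbook link between these genes. Of the 10 mouse let-7 names in RefSeq (GRCm38.p6), 9 share the seed at bases 2 to 8, given in capitals, and let-7j differs in it.
mmu-let-7a-5p: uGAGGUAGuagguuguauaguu
mmu-let-7g-5p: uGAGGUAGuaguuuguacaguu
mmu-let-7j: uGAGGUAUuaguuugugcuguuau
The complement of that seed, CTACCTC, was searched on the transcript strand of the longest annotated 3′ untranslated region (3′UTR) of each gene in GENCODE vM21 (GRCm38), and the match nearest the stop codon of each member is printed below in capitals within 22 bases of the transcript strand.
Lin28b: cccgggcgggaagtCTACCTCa
Igf2bp1: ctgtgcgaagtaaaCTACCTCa
Igf2bp2: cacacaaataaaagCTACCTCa
Igf2bp3: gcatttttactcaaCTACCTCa
Hmga1: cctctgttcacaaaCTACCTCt
Hmga2: ccgacattcaatttCTACCTCa
These windows lie at chr10:45381022-45381043 (minus strand) for Lin28b, chr11:95961778-95961799 (minus) for Igf2bp1, chr16:22059473-22059494 (minus) for Igf2bp2, chr6:49086787-49086808 (minus) for Igf2bp3, chr17:27563278-27563299 (plus) for Hmga1 and chr10:120364224-120364245 (minus) for Hmga2. All 6 genes held at least 1 match, against 9.0% of 20967 protein-coding genes. Igf2bp1, Lin28b and Hmga2 held 4 matches each, in 3′UTRs of 6337, 4445 and 3014 bases, and the other members held 1 each. Longer 3′UTRs hold more matches: among genes with a 3′UTR of similar length, any match was found in 34.3% for Igf2bp1, 24.1% for Lin28b and 16.1% for Hmga2, and 4 or more in 0.33%, 0.3% and 0.12%. For the members with 1 match, the share among genes of similar 3′UTR length was 12.1% for Igf2bp2, 13.3% for Igf2bp3 and 8.1% for Hmga1. The match of Hmga1 is followed by T and the other 5 printed matches by A. A match of these letters is a description and not evidence that let-7 acts there.

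The libraries held 2282124 to 5602529 reads in epithelium and 2146071 to 5729829 in fibroblasts. Values are the deposited normalised tag counts (reads divided by a library factor), and 3 reads, taken as the limit that a count of 0 allows, correspond to 0.560 to 1.37 in epithelial and 0.403 to 1.28 in fibroblast libraries; these limits cover counting error only. Epithelial markers summed to 31201 to 41009 in epithelial and 19.2 to 231 in fibroblast libraries, and fibroblast markers to 31.3 to 380 in epithelial and 8440 to 26046 in fibroblast libraries. Haemoglobin and other erythroid markers were present in both cell types despite the Ter119 gate, between 55.5 and 7395 in epithelium and between 0.134 and 4238 in fibroblasts.

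Lin28b (chr10:45376620-45486395, minus strand) gave 3 reads among 71847240 in all 21 libraries. One read each came from 1 epithelial library at E18.5, 1 epithelial library at P28 and the fibroblast library at P56, and the other 18 libraries had none. It did not pass the filter on low values (3 or more in at least 2 libraries), so no stage was compared. Lin28b was thus seen only as single reads, below the limit of 3 reads in every library.

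Igf2bp3 (chr6:49085223-49214957, minus strand), an RNA-binding protein of fetal and tumour cells, had the largest fitted change over the whole course of the members tested. In epithelium the 2 libraries of each stage had normalised tag counts of 102 and 145 at E18.5, 93.6 and 117 at P0.5, 89.3 and 64.9 at P2, 58.1 and 64.1 at P7, and 1.16 and 1.73 at P28. The mean was lower at each later stage; E18.5 and P0.5 overlapped, P2 and P7 each lay just below the stage before, and the P28 libraries lay far below all others. In fibroblasts it had 86.2 and 105 at E18.5, 79.0 and 86.5 at P0.5, 95.6 and 78.7 at P2, 22.8 and 24.2 at P7, 0 and 2.39 at P28, and 0 in the P56 library. The stages up to P2 overlapped, both P7 libraries were lower than all of these, and P28 and P56 were at or near 0. In bulk samples such as these, fewer cells of a type and less RNA per cell cannot be told apart. P28 averaged 1.44 ± 0.403 in epithelium against 124 ± 30.2 at E18.5 (SD, n = 2 each), a log2 difference of -5.66 (SE 0.25, limma adjusted p = 2.67e-09). In fibroblasts P28 averaged 1.20 ± 1.69 against 95.6 ± 13.2 at E18.5 (SD, n = 2 each), a log2 difference of -5.71 (SE 0.39, limma adjusted p = 2.46e-09). Fold changes from the linear means rest on 9 reads at P28 against 774 at E18.5 in epithelium and on 6 against 553 in fibroblasts. All 6 fibroblast reads at P28 came from replicate 2, and the fibroblast log2 difference was -4.82 without P28 replicate 1 and -6.59 without P28 replicate 2, passing in both. The single P56 library was at least 237-fold lower than E18.5 (limma, log2 difference -6.59, adjusted p = 5.59e-09), and its difference from P28 did not pass the test with all libraries. That difference did pass without P28 replicate 1, the library at 0 (log2 difference -1.76, limma adjusted p = 0.00174), with edgeR (-4.83, adjusted p = 0.0398) and with DESeq2 (-5.30, adjusted p = 0.0483).

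The steps of the Igf2bp3 fall were tested between neighbouring stages. In epithelium P28 was 42.3-fold lower than P7 (log2 difference -4.68, SE 0.25, limma adjusted p = 5.61e-08), and no earlier step passed (log2 differences of -0.21, -0.46 and -0.32). In fibroblasts P7 was 3.70-fold lower than P2 (log2 difference -1.84, SE 0.39, limma adjusted p = 0.00706) and P28 was 19.7-fold lower than P7 (log2 difference -3.73, SE 0.39, limma adjusted p = 1.39e-06). The fibroblast P7 step did not pass without P2 replicate 1 (limma adjusted p = 0.0919), P7 replicate 1 (0.0681) or P7 replicate 2 (0.0539), or with no filter on low values (0.165). The fibroblast P28 step was -2.85 without P28 replicate 1 and still passed. Malsu1, on the opposite strand, overlaps the 3′ end of Igf2bp3 by 1529 bases; which strand was counted was not stated in the sources used here, so reads of the pair cannot be told apart. Malsu1 had 0.934 to 6.57 in epithelium and 1.99 to 8.18 in fibroblasts, so the P28 and P56 values of Igf2bp3 do not exceed the range of its antisense neighbour.

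Igf2bp1 (chr11:95957163-96005940, minus strand), which binds and protects mRNAs including Myc, was measured with 2 to 55 reads per epithelial and 0 to 84 per fibroblast library. In epithelium its normalised tag counts were 14.3 and 17.4 at E18.5, 15.4 and 15.3 at P0.5, 14.6 and 15.2 at P2, 3.18 and 4.76 at P7, and 1.16 and 0.576 at P28. No step up to P2 passed the test, every library up to P2 was above both P7 libraries, and these were above both P28 libraries. In fibroblasts it had 8.71 and 7.68 at E18.5, 10.4 and 11.2 at P0.5, 18.1 and 23.0 at P2, 1.05 and 1.67 at P7, and 0 in both P28 libraries and at P56. P2 was the highest fibroblast stage, its libraries lying above all others, although the P2 step itself did not pass (log2 difference 0.86 from P0.5, SE 0.43, limma adjusted p = 0.191). P7 was 15.1-fold lower than P2 in fibroblasts (log2 difference -3.20, SE 0.43, limma adjusted p = 0.000126) and 3.75-fold lower in epithelium (log2 difference -1.69, SE 0.35, limma adjusted p = 0.0171). The epithelial step did not pass without P2 replicate 1 (limma adjusted p = 0.0687), P2 replicate 2 (0.0567) or P7 replicate 1 (0.147).

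Epithelial Igf2bp1 fell again between P7 and P28, where it was 4.57-fold lower (log2 difference -1.41, SE 0.35, limma adjusted p = 0.0241); this call was lost without P7 replicate 1 (0.0534), P7 replicate 2 (0.192) or P28 replicate 2 (0.167), with a pseudocount of 4 (-0.71, adjusted p = 0.116) and with DESeq2 (adjusted p = 0.0815). In fibroblasts P28 was at least 2.67-fold lower than P7, which did not pass (log2 difference -1.23, SE 0.43, limma adjusted p = 0.0514); it passed with a pseudocount of 0.5 (0.0149), no filter (0.0407), edgeR (0.0163) and DESeq2 (0.0442). Against E18.5, Igf2bp1 at P28 was 18.2-fold lower in epithelium (5 reads against 99; log2 difference -3.18, SE 0.35, limma adjusted p = 2.22e-05). In fibroblasts it was at least 16.1-fold lower at P28 (0 reads against 49, with 3 reads over the group as the floor; limma adjusted p = 1.25e-05). P56 was at least 20.3-fold lower than E18.5 (limma adjusted p = 9.78e-05). These falls of Igf2bp1 passed without each E18.5 or P28 library in turn.

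Igf2bp2 (chr16:22059009-22163299, minus strand), the member of the family that is best known from adult metabolic tissue, had the shallowest course of the 3 Igf2bp genes. Epithelial libraries had 19.5 and 18.9 at E18.5, 13.95 and 16.1 at P0.5, 15.04 and 9.23 at P2, 6.54 and 6.43 at P7, and 3.09 and 5.18 at P28. All libraries from P7 on were below all earlier ones, and only P0.5 and P2 overlapped among neighbouring stages. Fibroblast libraries had 7.58 and 8.53 at E18.5, 6.29 and 12.0 at P0.5, 13.5 and 12.6 at P2, 3.15 and 6.26 at P7, 2.95 and 5.18 at P28, and 2.42 at P56. The highest fibroblast stage was P2, and P7 and P28 overlapped. In epithelium P28 averaged 4.64-fold below E18.5 (log2 difference -2.01, SE 0.35, limma adjusted p = 0.000718), and no single step between neighbouring stages passed. In fibroblasts the corresponding log2 difference was -0.87 (SE 0.44, limma adjusted p = 0.136), which did not pass. The P56 library was 3.33-fold below E18.5 (log2 difference -1.40, SE 0.53, limma adjusted p = 0.0432), a call that was lost without E18.5 replicate 1 (0.0733), E18.5 replicate 2 (0.112) or both P2 libraries (0.0584), and with a pseudocount of 4 (0.0549), no filter (0.101), DESeq2 (0.0855), TMM scaling (0.0655) and the replicate block (0.0867).

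**Figure D1:**
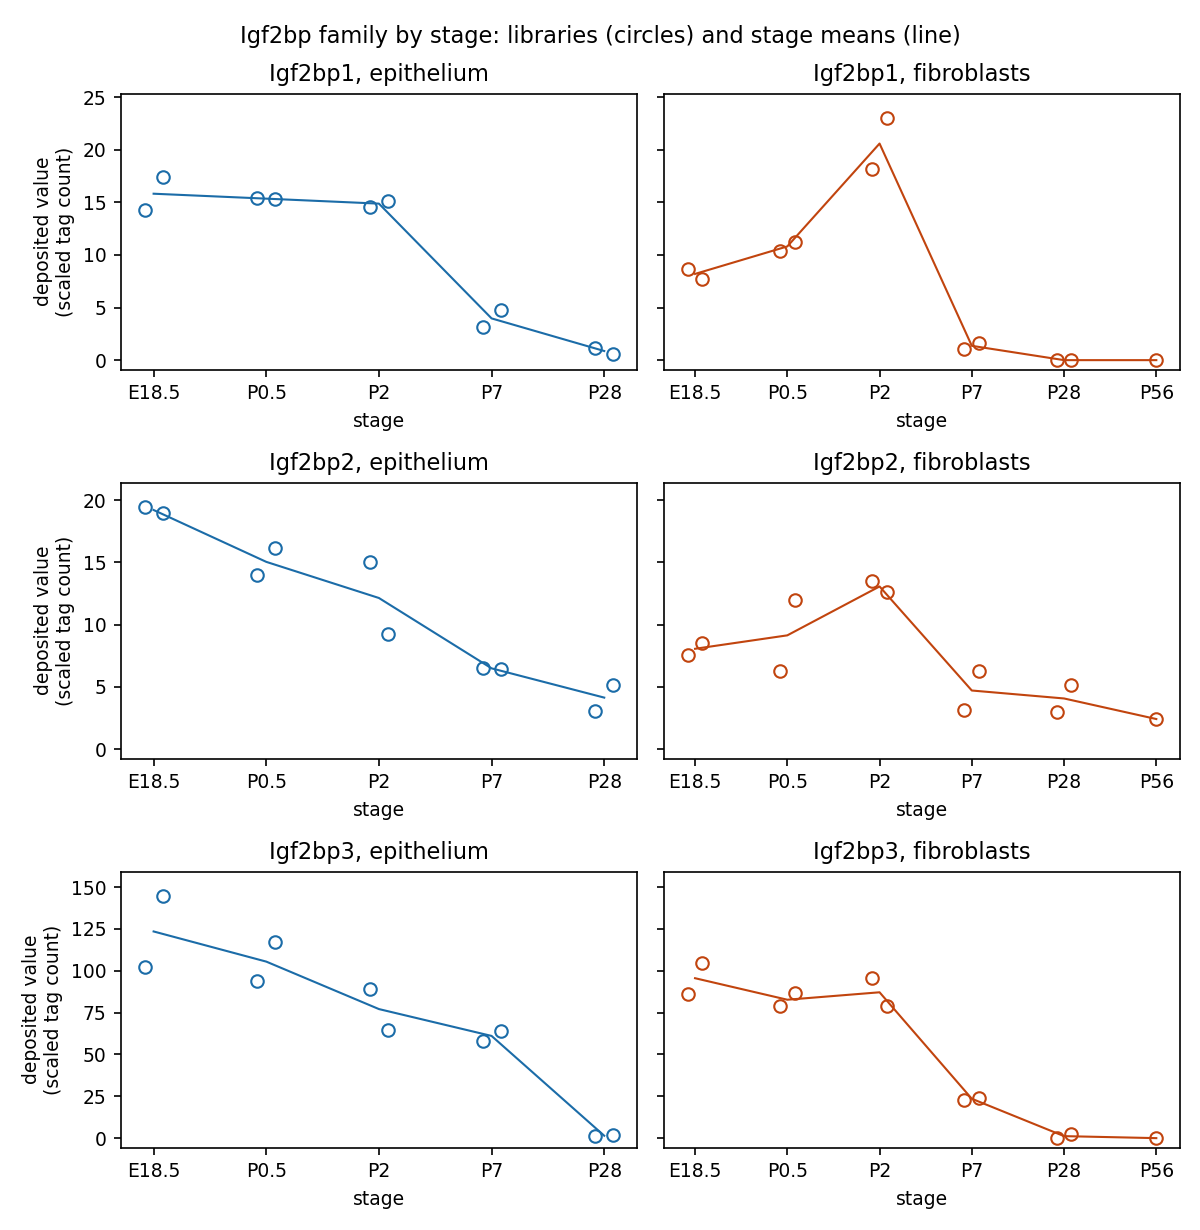
Normalised tag counts of Igf2bp1, Igf2bp2 and Igf2bp3 by stage, epithelium left and fibroblasts right; circles are libraries and lines join stage means, with stages evenly spaced. Igf2bp3 was at 58.1 or more in every epithelial library up to P7 and at 1.73 or less at P28, whereas in fibroblasts it was already at 24.2 or less at P7.

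Hmga1 (chr17:27556497-27563674, plus strand), which encodes an architectural protein of chromatin, was measured with 151 to 3512 reads per library. Epithelial libraries had normalised tag counts of 542 and 650 at E18.5, 402 and 462 at P0.5, 738 and 836 at P2, 656 and 757 at P7, and 438 and 312 at P28. P2 and P7 overlapped at the top and P0.5 and P28 overlapped at the bottom. Fibroblast libraries had 86.2 and 64.4 at E18.5, 130 and 98.8 at P0.5, 434 and 454 at P2, 103 and 95.2 at P7, 91.5 and 125 at P28, and 47.3 at P56. Both P2 libraries stood far above every other fibroblast library, and P0.5, P7 and P28 overlapped. P2 averaged 444 ± 14.2 in fibroblasts against 114 ± 22.0 at P0.5 (SD, n = 2 each), 3.88-fold higher (log2 difference 1.96, SE 0.22, limma adjusted p = 5.33e-06). P7 averaged 98.9 ± 5.28, 4.49-fold lower than P2 (log2 difference -2.16, SE 0.22, limma adjusted p = 6.1e-06). Both calls passed without each library in turn. The P56 library was lower than P28 (log2 difference -1.16, SE 0.27, limma adjusted p = 0.00258), where the median of all genes was -0.12. The opposite-strand gene AI413582 overlaps Hmga1 by 102 bases and had at most 5.18 in any library.

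Hmga1 at P28 did not pass the test against E18.5 in fibroblasts (log2 difference 0.52, SE 0.22, limma adjusted p = 0.0748), but it did, as a rise, without E18.5 replicate 1 (0.72, adjusted p = 0.0422) or P28 replicate 1 (0.74, adjusted p = 0.0396). Against E18.5, P0.5 also passed only without E18.5 replicate 1 (0.81, limma adjusted p just under the threshold, against 0.60 and 0.0695 with all libraries), and P56 only without E18.5 replicate 2 (-0.85, limma adjusted p = 0.0331).

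In epithelium the Hmga1 changes were smaller and less stable. P2 was 1.82-fold higher than P0.5 (log2 difference 0.86, SE 0.19, limma adjusted p = 0.0162), but the call was lost when any of the 4 libraries was left out (limma adjusted p of 0.0545 to 0.12). P28 was 1.88-fold lower than P7 (log2 difference -0.93, SE 0.19, limma adjusted p = 0.0076), lost without P7 replicate 2 (-0.83, adjusted p = 0.0772) or P28 replicate 2 (-0.68, adjusted p = 0.116). P28 was 1.59-fold lower than E18.5 (log2 difference -0.68, SE 0.19, limma adjusted p = 0.0188), lost without E18.5 replicate 2 (-0.55, adjusted p = 0.131) or P28 replicate 2 (-0.44, adjusted p = 0.193).

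**Figure D2:**
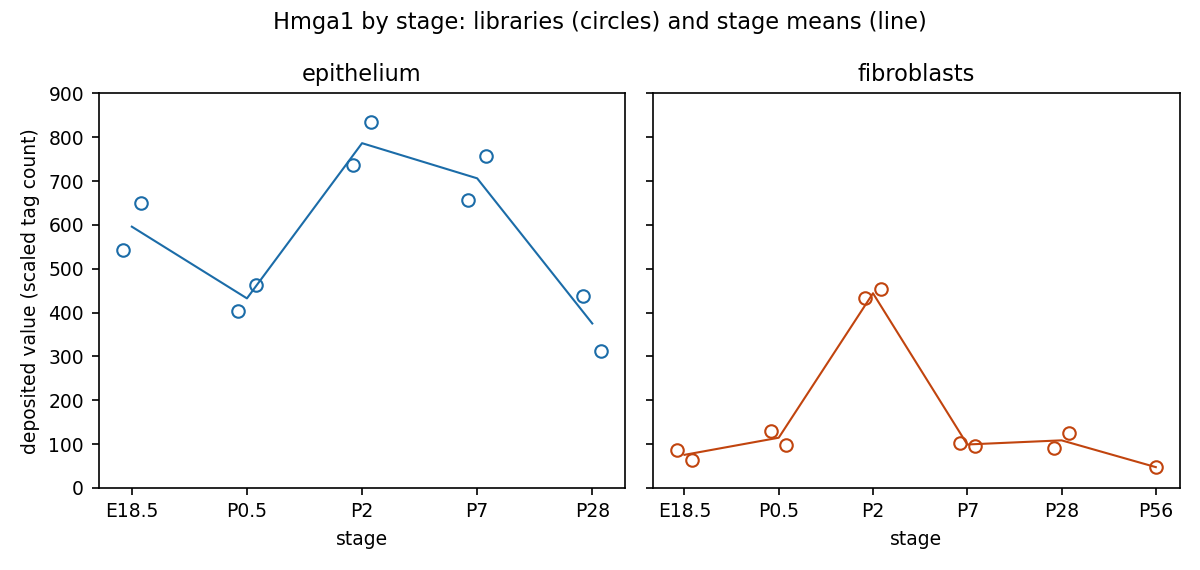
Normalised tag counts of Hmga1 by stage, epithelium left and fibroblasts right; circles are libraries and lines join stage means. The fibroblast P2 libraries, at 434 and 454, stand above the other fibroblast libraries, of which the highest was 130.

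Hmga2 (chr10:120361275-120476469, minus strand), the let-7-regulated family member of growing embryonic tissue, was measured in epithelium only and with few reads, 89 in all 10 libraries. Its normalised tag counts were 6.16 and 4.42 at E18.5, 4.77 and 5.66 at P0.5, 1.82 and 0.989 at P2, 1.68 and 1.96 at P7, and 0 in both P28 libraries. E18.5 and P0.5 overlapped, P2 and P7 overlapped at a lower level, and P28 was lowest. P28 had 0 reads against 33 at E18.5, which is at least 10.7-fold lower with 3 reads over the group as the floor (limma adjusted p = 0.000565). Hmga2 passed the filter on low values only through its E18.5 and P0.5 libraries, so its tests against these stages are not independent of the filter. The step from P0.5 to P2 (log2 difference -1.39, SE 0.44, limma adjusted p = 0.065) and that from P7 to P28 (-1.49, SE 0.44, adjusted p = 0.0566) did not pass. The P2 step passed with a pseudocount of 4 (adjusted p = 0.0483), and the P28 step with a pseudocount of 0.5 (0.0235) and with edgeR (0.0285). The opposite-strand genes 1700006J14Rik and 9230105E05Rik lie over Hmga2 and had at most 0.649 in any epithelial library.

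The annotated pseudogene Hmga2-ps1 has its own row and went the other way. In epithelium it had 10.7 and 9.47 at E18.5, 9.55 and 15.3 at P0.5, 16.0 and 32.6 at P2, 11.02 and 13.99 at P7, and 35.1 and 36.0 at P28. P28 was higher than E18.5 (log2 difference 1.72, SE 0.34, limma adjusted p = 0.00214) and than P7 (1.45, adjusted p = 0.0181). With the values of both rows summed, the sign of the Hmga2 change reversed: P28 against E18.5 became 1.17 (limma adjusted p = 0.0154) and P28 against P7 became 1.26 (0.0248). The Hmga2 fall therefore holds for reads assigned to Hmga2 alone, and the sources used here do not say how reads were divided between the rows.

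**Figure D3:**
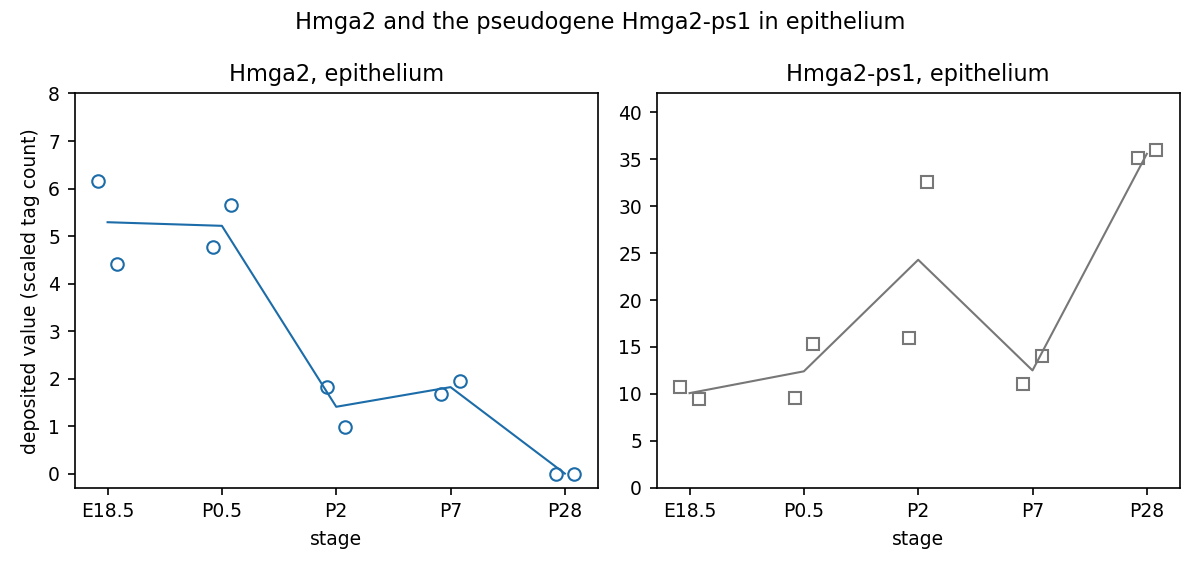
Normalised tag counts of Hmga2 (left) and Hmga2-ps1 (right) by stage in epithelium; circles and squares are libraries and lines join stage means. Hmga2 is at 0 in both P28 libraries, while Hmga2-ps1 is at 35.1 and 36.0 there.

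Over the whole course, all 5 members tested in epithelium were lower at P28 than at E18.5, where 24.9% of 12143 genes were called and 11.3% called lower. Hmga2 passed the filter on low values only through its E18.5 and P0.5 libraries. Summed with Hmga2-ps1 it rose instead (1.17, limma adjusted p = 0.0154). The Hmga1 difference of -0.68 was -0.55 without E18.5 replicate 2 and -0.44 without P28 replicate 2. In fibroblasts 2 of 4 members were lower at P28, where 33.6% of 11954 genes were called and 14.9% called lower, and 3 of 4 were lower at P56 than at E18.5, where 40% were called and 21.1% called lower. Step by step in epithelium, the number of the 5 members called was 0 at P0.5 against E18.5 (14.3% of all genes called), 1 at P2 against P0.5 (8.82%), 1 at P7 against P2 (3.71%) and 3 at P28 against P7 (7.28%). In fibroblasts it was 0 of 4 at P0.5 against E18.5 (15.4% of all genes), 1 at P2 against P0.5 (16.9%), 3 at P7 against P2 (6.64%), 1 at P28 against P7 (20.8%) and 1 at P56 against P28 (31.2%). The members were chosen with earlier results of these data known, so the counts are not read against these shares. The 3 epithelial calls at P28 and the 3 fibroblast calls at P7 also became fewer when some single libraries were left out.

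**Figure D4:**
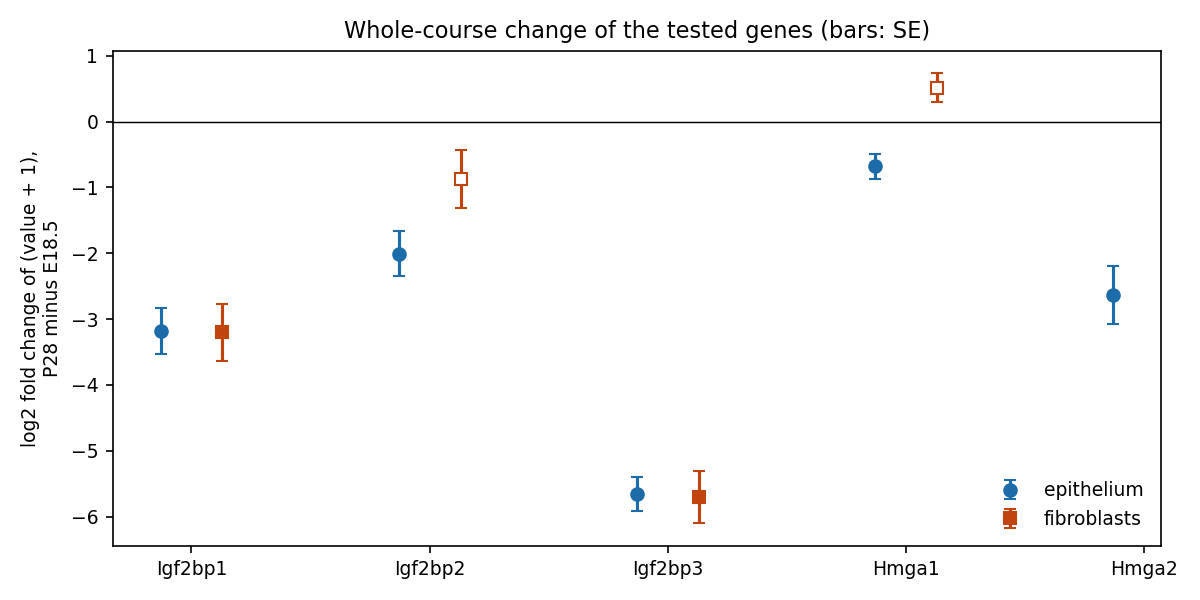
Log2 difference of P28 minus E18.5 for each member with its standard error, epithelium (circles) left of fibroblasts (squares); filled symbols have a limma adjusted p under 0.05. Igf2bp3 was at -5.66 in epithelium and -5.71 in fibroblasts, while Hmga1 was at -0.68 in epithelium and at 0.52 in fibroblasts, where it did not pass.

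Markers of other cells moved with some of these changes, and their part in the results was not tested. In epithelium mesothelial markers summed to 3.09 to 9.22 at P28 against 432 to 454 at E18.5, nearly all of it Msln, with the medians of Upk3b, Wt1 and Lrrn4 at 0. In fibroblasts, where Igf2bp1 and Igf2bp3 were at or near 0 at P28, the same sum was 409 to 491 at P28 against 150 to 167 at E18.5. Most of the fibroblast sum was Upk1b (137 to 474 over all fibroblast libraries), and the median of Msln was 9.38. Leukocyte markers in epithelium summed to 1718 to 1777 at P28 against 28.8 to 43.7 at P7. Erythroid markers in fibroblasts summed to 93.7 to 181 at P7 against 2179 to 4238 at P2, the step at which Igf2bp1, Igf2bp3 and Hmga1 fell. At other stages this sum was 629 to 894 (E18.5, where the Igf2bp3 mean was highest), 2739 to 3592 (P0.5) and 657 to 2876 (P28). In epithelium the erythroid sum was 55.5 to 304 at P7 against 2059 to 7395 at P2, a step at which Igf2bp1 fell and the other members did not pass. Cell cycle genes in fibroblasts summed to 61.0 to 64.9 at E18.5, 35.2 to 41.9 at P0.5 and 77.1 to 130 at P2. At P7 they summed to 220 to 222, at P28 to 47.5 to 68.2 and at P56 to 23.5. This sum rose with Hmga1 from P0.5 to P2 and rose further at P7, where Hmga1 fell.

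Epithelium was set against fibroblasts on reads per 1000000 scaled over the genes of both tables (joint CPM), because the tables were normalised separately. Over the 5 shared stages all 4 members tested were higher in epithelium, where 62.4% of 13386 genes were called, 32.5% as higher. Lin28b has a row in both tables but did not pass the filter on low values. Hmga1 averaged 549 in epithelium and 162 in fibroblasts (log2 difference 2.04, SE 0.09, limma adjusted p = 2.02e-14). Igf2bp1 averaged 9.69 in epithelium and 7.85 in fibroblasts (log2 difference 0.55, SE 0.15, limma adjusted p = 0.00319). Both passed without each of the 20 libraries in turn. Igf2bp2, at 10.9 in epithelium and 7.50 in fibroblasts (0.42, SE 0.17, limma adjusted p = 0.0375), was lost without any of 12 libraries (adjusted p up to 0.1) and with DESeq2 (0.072). These were replicate 1 of epithelial E18.5, P2 and P7, replicate 2 of epithelial P0.5, P7 and P28, replicate 1 of all 5 fibroblast stages and replicate 2 of fibroblast P2. Igf2bp3, at 70.4 in epithelium and 55.6 in fibroblasts (0.43, SE 0.16, limma adjusted p = 0.027), was lost with a pseudocount of 0.5 (0.0528) and without any of 8 libraries (adjusted p up to 0.0626): epithelial E18.5, P0.5 and P28 replicate 2 and P2 replicate 1, and fibroblast E18.5, P0.5 and P28 replicate 1 and P2 replicate 2. The Igf2bp3 difference was 0.26 without fibroblast P28 replicate 1.

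Stage by stage, Hmga1 was the member that passed at all 5 stages. Its epithelial libraries were above its fibroblast libraries everywhere, from 529 and 614 in epithelium against 60.9 and 83.0 in fibroblasts at E18.5 (log2 difference 2.99, limma adjusted p = 1.56e-10) to 704 and 767 in epithelium against 410 and 438 in fibroblasts at P2, the smallest difference (0.79, limma adjusted p = 0.00376). The differences at P0.5, P7 and P28 were 1.92, 2.80 and 1.71. Of the 4 members, 3 passed at E18.5 (38.2% of genes called), 1 at P0.5 (41%), 1 at P2 (41%), 3 at P7 (35.5%) and 1 at P28 (38.1%). At E18.5 Igf2bp1 (0.87, limma adjusted p = 0.0458) and Igf2bp2 (1.16, limma adjusted p = 0.0199) were higher in epithelium, and both calls were lost when any of the 4 libraries was left out (limma adjusted p of 0.0857 to 0.188 and of 0.0566 to 0.0871). The Igf2bp1 call at E18.5 was also lost with a pseudocount of 0.5 (0.0708), no filter (0.0582), DESeq2 (0.106), the replicate block (0.0507) and unscaled deposited values (0.0504). At P7 Igf2bp3 libraries had 54.8 and 60.9 joint CPM in epithelium and 22.1 and 23.1 in fibroblasts (1.32, SE 0.37, limma adjusted p = 0.00696), and without epithelial P7 replicate 2 the adjusted p was 0.0501. Igf2bp1 was also higher in epithelium at P7 (1.04, SE 0.34, limma adjusted p = 0.0195), lost without epithelial P7 replicate 2 (0.168) or fibroblast P7 replicate 1 (0.121), with a pseudocount of 4 (0.54, adjusted p = 0.061) and with DESeq2 (adjusted p = 0.0753). At P2 the 3 Igf2bp genes had log2 differences of -0.46, -0.16 and -0.21 for Igf2bp1, Igf2bp2 and Igf2bp3, none past the test. At P28 the Igf2bp3 difference depended on the fibroblast library at 0, being 1.23 (limma adjusted p = 0.0029) without replicate 2 and -0.52 without replicate 1.

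**Figure D5:**
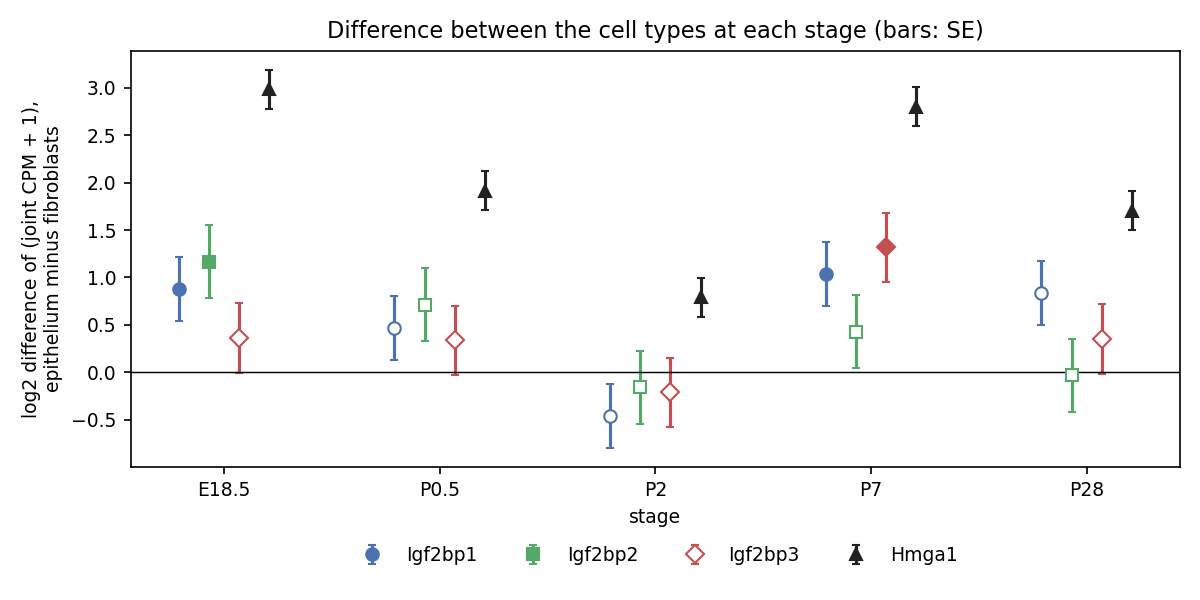
Log2 difference of joint CPM, epithelium minus fibroblasts, by stage for the 4 members tested between the cell types, with standard errors. Filled symbols have a limma adjusted p under 0.05. Hmga1 is above 0 and filled at every stage, lowest at P2 (0.79), and the Igf2bp genes are filled only at E18.5 (Igf2bp1, Igf2bp2) or P7 (Igf2bp1, Igf2bp3).

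Whether the change from E18.5 to P28 differed between the cell types was tested directly. Hmga1 differed (epithelial minus fibroblast log2 change -1.28, SE 0.29, limma adjusted p = 0.00433), a call kept without each of the 8 libraries involved (-1.51 to -1.03). The other 3 members did not pass, where 15.1% of genes were called: the difference was -0.04 (SE 0.48) for Igf2bp1, -1.20 (SE 0.54, limma adjusted p = 0.155) for Igf2bp2 and -0.01 (SE 0.52) for Igf2bp3. A difference that did not pass does not show that the changes were alike. The step changes were compared in the same way, a test chosen after seeing the data. Hmga1 differed most at P7 against P2 (2.01, limma adjusted p = 0.00104, with 1.61% of genes called), and that call held without each of 8 libraries (1.90 to 2.12). The differences at the other steps, -1.07, -1.12 and -1.09, had limma adjusted p of 0.0457, 0.0278 and 0.0208 (with 3.53%, 5.24% and 8.59% of genes called) and were lost without any of 7, 6 and 4 of the 8 libraries. The libraries whose loss kept the call were fibroblast E18.5 replicate 1 for P0.5 against E18.5, epithelial P2 replicate 2 and fibroblast P0.5 replicate 1 for P2 against P0.5, and replicate 1 of P7 and P28 in both cell types for P28 against P7. The Igf2bp3 and Igf2bp1 steps at P7 did not pass this test (1.53, limma adjusted p = 0.165, and 1.50, adjusted p = 0.134). The Igf2bp3 difference passed with a pseudocount of 4 (1.42, adjusted p = 0.0263) and with DESeq2 (1.50, adjusted p = 0.00592), so it depends on the method. The Igf2bp3 difference at P28 against P7 passed with a pseudocount of 4 (-1.13, adjusted p = 0.0315) or without fibroblast P28 replicate 1 (-1.84, limma adjusted p = 0.00518), and not otherwise among the alternatives run.

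The 3 Igf2bp genes had related courses. Across the 10 epithelial libraries the Pearson correlation of log2 values was 0.90 between Igf2bp1 and Igf2bp2, 0.90 between Igf2bp1 and Igf2bp3 and 0.84 between Igf2bp2 and Igf2bp3; across the 11 fibroblast libraries it was 0.90, 0.91 and 0.82. Libraries share stage and depth, so these are descriptions of the same stage course. In epithelium the genes closest to Igf2bp3 were Nnat (0.989), Meg3 (0.989) and Dennd3 (0.983), and those closest to Hmga2 were Wwtr1 (0.976), Dlk1 (0.970) and Tmem147 (0.966). Nnat, Meg3 and Dlk1 are imprinted genes. High correlations were common: 80 of 7557 candidate genes exceeded 0.9 with epithelial Igf2bp3, and 57 of 7558 with Hmga2. Epithelial Igf2bp2 lay closest to Trim16 (0.976), Ip6k2 (0.974) and the mesothelial marker Msln (0.967), and epithelial Igf2bp1 to Rpl29 (0.984) and the predicted genes LOC102634483 (0.982) and LOC102642738 (0.981). In fibroblasts Igf2bp1 lay closest to Usp10 (0.970), Igf2 (0.969) and AW549542 (0.950). Fibroblast Igf2bp3 lay closest to Shisa6 (0.978), Hadha (0.975) and LOC102642295 (0.974), and Igf2bp2 to Brpf1 (0.963), Spire1 (0.934) and Brd8 (0.931). Among the genes closest to Hmga1 were Ubap2 (0.962) and Ch25h (0.942) in epithelium and Nup98 (0.964) and Slc6a17 (0.962) in fibroblasts.

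The other genes of the pathway were counted at P28 against E18.5 by the same test, and no list was tested as a set. Over all genes, 24.9% were called in epithelium (11.3% lower) and 33.6% in fibroblasts (14.9% lower). Of 15 tested genes of let-7 processing and LIN28 partners, 2 were higher and 2 lower in epithelium, and 1 was higher and 3 lower in fibroblasts (medians 0.22 and -0.01, against 0.03 and 0.01 for all genes). Ago4, an Argonaute protein, was lower in both (log2 differences -1.21 in epithelium and -1.46 in fibroblasts), and Tnrc6b, a silencing cofactor of Argonaute, was higher in both (1.62 and 0.86). Dgcr8, the partner of Drosha, was lower in epithelium (-1.45, limma adjusted p = 0.0038), and Zcchc11, a terminal uridyltransferase that acts with LIN28A, was lower in fibroblasts (-1.18, limma adjusted p = 0.000251). Of known let-7 targets other than the members, 3 of 17 were higher and 3 lower in epithelium (median -0.28, against 0.03 for all genes), and 3 of 16 were higher and 2 lower in fibroblasts (median -0.23, against 0.01). In epithelium Hic2, a transcriptional repressor, was lower (-2.89, limma adjusted p = 2.36e-05), as was the IGF receptor Igf1r (-1.56, limma adjusted p = 0.000221), while the cyclin Ccnd1 was higher (2.42, limma adjusted p = 6.64e-05). In fibroblasts the phosphatase Cdc25a was lower (-1.39), and Fign (2.01) and the receptor Tgfbr1 (1.32) were higher.

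Among IGF2BP mRNA targets, 3 of 8 were higher and 2 lower in epithelium (median 0.46) and 3 were higher and 3 lower in fibroblasts (median -0.25). For this list and the next ones, the share of all genes called was 24.9% in epithelium and 33.6% in fibroblasts. Igf2, a fetal growth factor, averaged 0.864 at P28 and 48.6 at E18.5 in epithelium (limma adjusted p = 3.78e-06) and 2.72 at P28 and 21.2 at E18.5 in fibroblasts (limma adjusted p = 3.08e-05). H19, the imprinted RNA beside Igf2, had 0 at P28 and 194 at E18.5 in epithelium and 19.8 at P28 and 848 at E18.5 in fibroblasts. Cd44, a hyaluronan receptor, was higher in both (log2 differences 3.63 and 2.19), and Fscn1, an actin-bundling protein, was lower in fibroblasts (-2.74). Proteins of IGF2BP granules gave 4 higher and 1 lower of 14 in epithelium and 4 higher and 2 lower in fibroblasts (medians 0.19 and 0.32), with Ilf2 (2.04 and 1.35) and Ddx5 (1.04 and 1.17) higher in both. Genes of the m6A pathway gave 1 higher (Ythdc1, 0.66) and 1 lower (Fto, -0.64) of 12 in epithelium and 1 higher (Ythdc1, 0.88) of 11 in fibroblasts (medians 0.17 and -0.06). Other HMG-box and HMGN genes gave 1 higher and 1 lower of 10 in epithelium, Hmgn5 (2.00) and Hmg20b (-1.17), with a median of 0.45; in fibroblasts Hmgn3 was higher (1.85) and Hmg20b lower (-0.78).

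Imprinted fetal growth genes formed the list with the largest share of lower genes: 10 of 14 were lower and 1 higher in epithelium (median -2.52), and 10 of 15 were lower and 1 higher in fibroblasts (median -2.13). Over all genes, 11.3% were called lower in epithelium and 14.9% in fibroblasts. The lists were chosen with earlier results of these data known, so their counts and rank are not read against these shares. Igf2 and H19 also belong to the list of IGF2BP mRNA targets. Their summed level was 728 to 790 at P28 against 3447 to 3721 at E18.5 in epithelium and 972 to 1005 at P28 against 5390 to 5568 at E18.5 in fibroblasts. Dlk1, a Notch-like ligand of fetal tissue, had 0 at P28 and 199.8 at E18.5 in epithelium (limma adjusted p = 4.32e-11), and the non-coding RNA Meg3 had 74.0 at P28 and 1771 at E18.5 (limma adjusted p = 4.73e-10). In fibroblasts Mest, a hydrolase of mesoderm, had 81.8 at P28 and 1645 at E18.5, and Igf2r, which clears IGF2, had 134 at P28 and 1251 at E18.5.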

How the data were processed

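RNA was measured by 3′SAGE-seq in 21 libraries from sorted lung cells. The deposited values are a signal: tag counts that the authors divided by 1 factor per library, as the value steps show, since every value was a whole multiple of 1 read within 0.01. Bowtie2 2.2.5, R 3.4.0 and mm10 are named per the submitters' processing notes; the counting, its strand and the normalisation method are not given in the sources used here. Reads recovered from these steps gave the depths. Stages were compared with limma 3.58.1 under R 4.3.3: log2(value + 1) was modelled with 1 mean per stage, all libraries of a cell type in 1 fit and moderated variances following the mean. Genes reaching 3 in 2 or more libraries were tested. Tests were two-sided, with Benjamini-Hochberg adjustment over all genes tested and a threshold of 0.05. A log2 difference on this scale understates the change of low genes. Cell types were compared in 20 libraries on recovered reads of the 20004 shared genes, scaled with edgeR 4.0.16 (TMM) to joint CPM. The P56 library is assumed to vary like the other stages. The scripts were tested on simulated data.

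Alternatives were pseudocounts of 0.5 and 4, no filter, edgeR and DESeq2 1.42.0 on recovered reads, another scaling, a replicate block, each library left out, and, after seeing the data, summed rows of genes that share sequence (Hmga2 with Hmga2-ps1 among them) and no fibroblast P2 libraries. The members and lists were chosen with earlier results of these data known. Named are all members, the 3 genes most correlated with each member (mean of at least 10 in their highest stage, predicted Gm and Rik symbols left out), and of each list up to 3 called genes of smallest adjusted p; some items are not reported here. Replicates of a group differed by more than sampling noise, with a chi-square per degree of freedom of 4.64 to 10.6.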

Additional observations from a re-analysis of the deposited data

Results flagged for a closer look

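The Hmga1 course differed between the cell types by a test of the difference itself. Its change from E18.5 to P28, epithelium minus fibroblasts, was -1.28 on the log2 scale (limma adjusted p = 0.00433). The step differences, chosen after seeing the data, were -1.07 at P0.5 against E18.5, -1.12 at P2 against P0.5, 2.01 at P7 against P2 and -1.09 at P28 against P7. The step at P7 was the only one of the 4 kept without each of its 8 libraries in turn.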

How the results depend on the processing

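The falls of Igf2bp1 and Igf2bp3 at P28 against E18.5 in both cell types, and the higher Hmga1 in epithelium at all 5 stages, passed under every alternative run. Low counts limit the rest: Hmga2 rests on 89 reads. Summing it with Hmga2-ps1 reversed Hmga2 in epithelium to 0.48 (P2 against P0.5), 1.26 (P28 against P7) and 1.17 (P28 against E18.5). The number of members called became 2 at epithelial P2 against P0.5 (1 in the main analysis) with a pseudocount of 4; 2 at fibroblast P28 against P7 (1) with a pseudocount of 0.5, no filter, edgeR or DESeq2, the added gene being Igf2bp1; 2 at fibroblast P56 against P28 (1) with edgeR or DESeq2; and 2 for epithelium against fibroblasts at P28 (1) with a pseudocount of 0.5, edgeR or unscaled deposited values. Leaving out 1 library gave 1 to 1 at E18.5 (3), 1 to 3 at P7 (3), 1 to 2 at P28 (1) and 2 to 4 over the mean of stages (4) between cell types; in epithelium 0 to 0 at P2 against P0.5 (1), 0 to 1 at P7 against P2 (1), 1 to 3 at P28 against P7 (3) and 4 to 5 at P28 against E18.5 (5); and in fibroblasts 0 to 1 at P0.5 against E18.5 (0), 2 to 3 at P7 against P2 (3), 2 to 3 at P28 against E18.5 (2), 1 to 2 at P56 against P28 (1) and 2 to 3 at P56 against E18.5 (3). The number of members whose step change differed between cell types became 0 at P0.5 against E18.5 (1) with no filter, edgeR, the replicate block, unscaled values or summed rows, and 2 at P7 against P2 (Hmga1 and Igf2bp3) with a pseudocount of 4 or DESeq2 and at P28 against P7 with a pseudocount of 4. The difference between cell types in the P28 change, never called, reversed for Igf2bp1 to 0.44, 3.49, 2.72 and 0.016 and for Igf2bp3 to 0.25, 0.10, 0.094 and 0.046 with a pseudocount of 0.5, edgeR, DESeq2 and unscaled values; leaving out 1 library gave -0.24 to 0.16 for Igf2bp1 and -0.89 to 0.86 for Igf2bp3, and -0.52 to 1.23 for Igf2bp3 between cell types at P28. Over all genes, no filter gave 578 calls against 1071 at epithelial P2 against P0.5, 211 against 451 at epithelial P7 against P2, and 1113, 1254 and 359 against 1839, 2025 and 794 at the first 3 fibroblast steps, and DESeq2 gave 363 against 216 for the step difference at P7. Leaving out 1 library of either stage lowered the counts over all genes to 616 to 1118 against 1740, 109 to 775 against 1071, 140 to 431 against 451 and 406 to 566 against 884 at the 4 epithelial steps, and to 262 to 514 against 794 at fibroblast P7 against P2, which moves the background shares. The cause of these shifts was not tested. Differences of replicate 1 minus replicate 2 correlated at -0.0621 to 0.0738 over 20 pairs of stages within a cell type. Between cell types they correlated at -0.0546 to 0.0996 over 5 stages. The labels name no animal, so these values cannot show whether libraries of the same number share an animal. The replicate block ended the calls of Igf2bp2 at fibroblast P56 against E18.5 (-1.17), of Igf2bp1 between cell types at E18.5 (0.87) and of the Hmga1 step difference at P0.5 (-1.07), and no other call of a member.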
